A study of Mus musculus with 8 samples.

Results

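The RAS-RAF-MEK-ERK cascade was followed here as 35 genes among the 24421 gene rows of the count tables: 5 RAS proteins, 5 RAF, MEK and ERK kinases, 3 scaffolds, 7 exchange factors, 5 RasGAPs and other negative regulators, 6 adaptors and phosphatase genes, and 4 RSK and MSK kinases. The members were taken by symbol from a fixed list, all 35 symbols were present, and all 35 passed the filter on low counts, with 187 to 30788 reads per gene and library. Other genes of the RAS, RAF and ERK families are not analysed here. The 8 libraries came from C57BL/6 mice. The 4 KO libraries came from mice with Otp-Cre, both Cic alleles floxed (Cicflox/flox) and ROSAfsTRAP, and the 4 Control libraries from mice with Otp-Cre and ROSAfsTRAP and no floxed Cic listed, so that both groups carried the Cre driver and the tagged-ribosome allele. Cre expressed from Otp acts in the Otp lineage of neurons and switches on a tag on their ribosomes. RNA bound to tagged ribosomes was purified from dissected hypothalamus and medial amygdala. Neither the age of the mice nor whether each library came from its own animal is stated in the labels, and the p-values therefore speak only of the spread among these 8 samples, which may be technical.

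In this cascade an activated receptor tyrosine kinase recruits adaptors and an exchange factor, which loads RAS with GTP; RAS then activates RAF, RAF phosphorylates MEK, and MEK phosphorylates ERK. RasGAPs such as neurofibromin end the signal by speeding GTP hydrolysis. Capicua, the repressor encoded by Cic, sits at the far end: active ERK phosphorylates it and relieves its repression of genes such as the ETS factors Etv4 and Etv5 and the Sprouty and Spred inhibitors that feed back on RAS. In neurons the pathway also responds to calcium, through exchange factors of the RASGRF and RASGRP families, and its activity is tied to synaptic plasticity.

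The octamer TGAATGNA, taken here as a pattern for Capicua binding, was searched on both strands in the RefSeq promoters (GRCm38.p6). Each promoter ran from 250 bases before to 50 after a start. No other pattern was searched, so other forms of the bound sequence would be missed. Of the 35 members, 31 had a promoter in the table; Mapk3, Rasal1, Gab2 and Rps6ka3 did not. Among these 31 only Grb2 held the octamer (3.23%), against 4.44% of the 27025 genes in the whole promoter table. It was held by 1 of 12 feedback inhibitors with a promoter in the table (8.33%), Spred3, and by 2 of 12 output genes (16.7%), Maff among them. Of the pathway genes that rose, described further on, Spred3, Etv5 and Maff had a promoter in the table, and Etv5 did not hold the octamer. A match is a description of the letters and not a site. The windows of 30 bases below show the Grb2 match and, for comparison, that of Spred3, a feedback inhibitor of the pathway, each on the minus strand of its chromosome and read 5′ to 3′ along the gene, with the octamer in capitals. The Grb2 window lies at chr11:115699928-115699957, at 1 of the RefSeq starts of that gene, and its octamer begins 18 bases before the start. The Spred3 window lies at chr7:29168639-29168668, and its octamer begins 10 bases before the start.
Grb2: caagttgggcgTGAATGGAgctggtgctca
Spred3: cttgatttttgTGAATGAAatgctccttgt

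The libraries held 38171319 to 57300362 gene counts in Control and 33223878 to 49587839 in KO. Cic itself measured 103, 72.4, 101 and 101 CPM (read counts scaled to a common library size with TMM factors) in Control replicates 1 to 4 and 44.9, 34.5, 59.3 and 37.5 CPM in KO. The groups did not overlap (log2 fold change -1.10, SE 0.21, edgeR adjusted p = 0.00220). With Control replicates 1 and 4 both left out, an alternative chosen after seeing the data, the log2 fold change was -0.98 (edgeR adjusted p = 0.135). In that fit 4 genes passed over all genes, against 40 with all 8 libraries. Summed markers of neurons ranged from 10874 to 13049 CPM in Control and from 11115 to 15263 CPM in KO, and those of the Otp lineage from 212 to 285 and from 217 to 355 CPM, with Otp itself low at 2.28 to 5.01 and 2.69 to 8.55 CPM. All 5 Otp-lineage and all 4 peptide markers had a positive fold change, while all 9 oligodendrocyte markers and all 4 of oligodendrocyte precursors had a negative one, with summed levels of 2483 to 3167 CPM in Control and 1561 to 2905 CPM in KO for the former and of 119 to 129.9 against 66.8 to 109.7 CPM for the latter. Microglial markers were low, at 10.2 to 40.1 CPM summed over 7 genes in Control and 8.83 to 23.8 CPM in KO, and no defining marker of these types was without reads in any library. Added spike-in RNA made up 0.0569% to 0.0739% of gene counts in KO replicates 1, 2 and 4 and 0.299% to 0.522% in the other 5 libraries; KO replicate 3, the KO library at the Control level, lay on the KO side for Cic. Within those 5 libraries KO replicate 3 alone stands for KO, so member differences have no replicate check there. In such bulk RNA, fewer cells of a type and less RNA per cell cannot be told apart.

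No member of the cascade passed the test between KO and Control. Over all 15438 genes tested with edgeR, 40 passed an adjusted p of 0.05, 0.259% of them, and of the 35 members 0 passed, as was also the case with DESeq2 and limma-voom. In no member did the 4 KO libraries lie wholly above or below the 4 Control libraries, a separation that 5.93% of all genes showed. At an unadjusted edgeR p under 0.05 there were 6 members (17.1%), 5 higher and 1 lower in KO, against 10.6% of all genes. That count of 6 was 8 with DESeq2 and 5 with limma-voom, and 0 with the summed glial and vascular markers as a covariate. It was 1 without Control replicate 4 and 3 without Control replicate 2, KO replicate 1 or KO replicate 2, and it reached 9 without Control replicate 3. Fold changes were small: 22 members were positive and 13 negative, the median log2 fold change was 0.05, beside 0.02 over all genes, and the range was -0.52 (Ksr1) to 0.39 (Sos1). The 95% interval of the fold change lay within 1.5-fold either way for 29 members and within 2-fold for all 35; over all genes this held for 8233 and 11805 of 15438, and over the genes within the members' range of mean CPM for 7965 and 10226 of 10431. The 6 with intervals that crossed a 1.5-fold bound were Ksr1, Sos1, Rasgrf2, Rasgrp1, Rasa2 and Rps6ka1. These were not the 6 widest intervals: that of Sos1 (0.12 to 0.65) was narrower than that of Rras (-0.41 to 0.56), which lay within 1.5-fold. Changes of a size inside these intervals may have been missed, but the intervals are no detection limit. The 6 members at an unadjusted edgeR p under 0.05 had intervals that left out 0, and none of them passed over all genes.

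**Figure D1:**
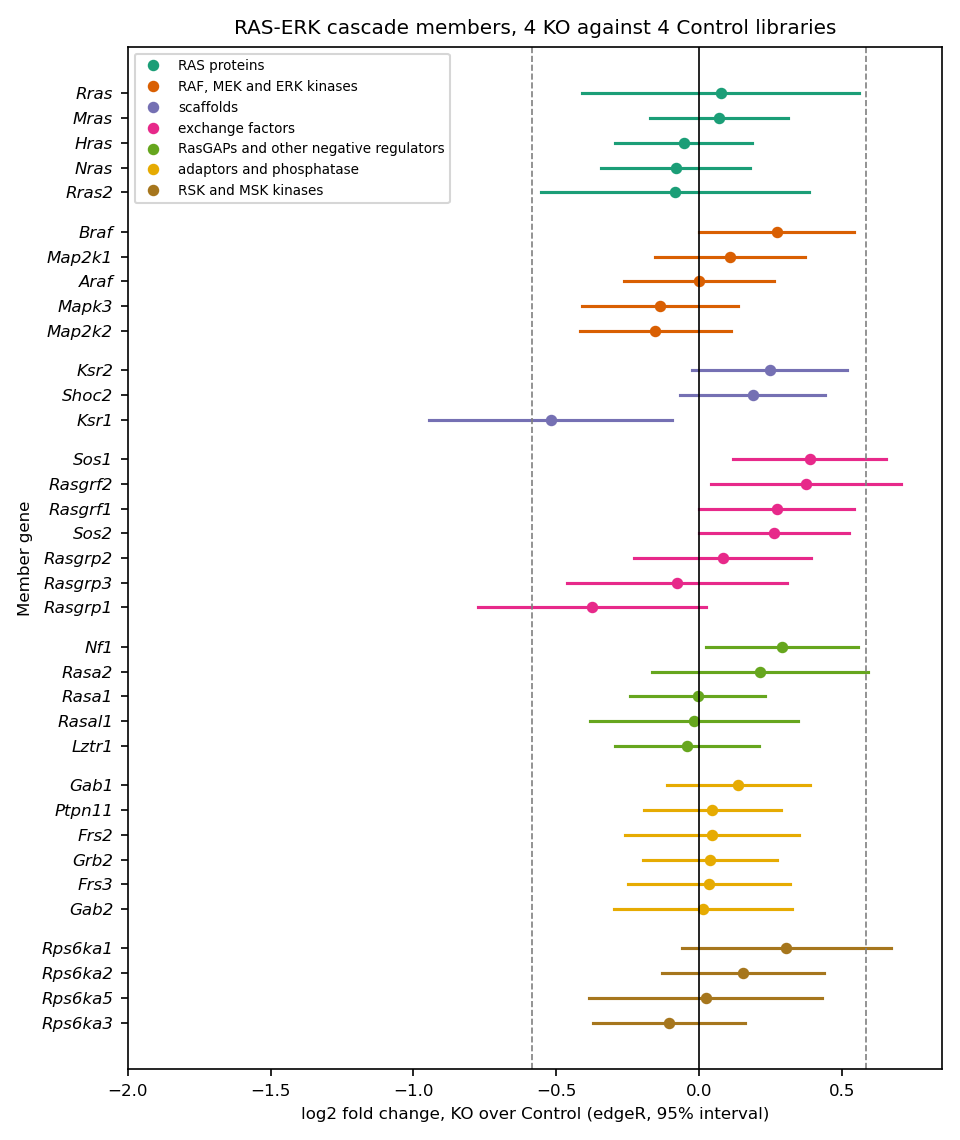
Log2 fold change of each member, KO over Control (x axis), with the 95% interval from the edgeR fit over 4 KO and 4 Control libraries, grouped by role. Solid line, no change; dashed lines, 1.5-fold. Point values run from -0.52 for Ksr1 to 0.39 for Sos1, and all 35 intervals stay within 2-fold.

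The 7 exchange factors, which load RAS with GTP, held 3 of the 6 members with an unadjusted edgeR p under 0.05. That level was reached by 10.6% of all genes and by 12.8% of those within the members' range of mean CPM. Of the 7, 5 had a positive value and 2 a negative one. Sos1, the exchange factor that GRB2 brings to activated receptors, measured 144, 156, 193 and 141 CPM in Control replicates 1 to 4 and 234, 179, 215 and 202 CPM in KO. Only Control replicate 3 reached into the KO range, where it exceeded KO replicate 2. The means were 159 ± 24.1 and 207 ± 23.1 CPM (SD, n = 4 each), and the log2 fold change of 0.39 (SE 0.13, 95% interval 0.12 to 0.65) did not pass over all genes (edgeR adjusted p = 0.264, 0.122 to 0.993 over the alternatives). It was 0.23 with the glial and vascular covariate and 0.25 without Control replicates 1 and 4.

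Its paralogue Sos2 had 94.2, 74.2, 96.6 and 85.3 CPM in Control and 99.0, 106, 123 and 91.5 CPM in KO, with KO replicate 4 inside the Control range. The log2 fold change was 0.26 (95% interval -0.0014 to 0.52, edgeR adjusted p = 0.474).

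The RASGRF proteins are calcium- and calmodulin-regulated exchange factors of neurons. Rasgrf1, which is imprinted and expressed from the paternal allele in brain, had 527, 420.1, 550.2 and 443 CPM in Control and 601, 694, 549 and 499 CPM in KO. KO replicates 3 and 4 lay inside the Control range. Its log2 fold change was 0.27 (95% interval 0.0010 to 0.54, edgeR adjusted p = 0.470), and 0.17 without KO replicate 2.

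Rasgrf2 had 92.5, 72.9, 107 and 72.4 CPM in Control and 148, 85.5, 107 and 107 CPM in KO. KO replicate 1 stood high while KO replicates 2 to 4 lay within the Control range. The log2 fold change was 0.37 (SE 0.21, 95% interval 0.04 to 0.71, edgeR adjusted p = 0.410), and 0.20 without KO replicate 1 or 0.21 with the glial and vascular covariate.

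The RASGRP proteins are exchange factors that bind diacylglycerol, and their values had no common direction. Rasgrp1 had 369.6, 197, 260.0 and 418 CPM in Control replicates 1 to 4 and 189.8, 239, 265 and 266 CPM in KO. Control replicates 1 and 4 stood well above the other 6 libraries, whereas Control replicates 2 and 3 lay within the KO range. The means were 311 ± 101 CPM in Control and 239.9 ± 35.6 CPM in KO, with a log2 fold change of -0.38 (SE 0.27, 95% interval -0.77 to 0.02, edgeR adjusted p = 0.507). Without Control replicates 1 and 4, an alternative chosen after seeing the data, the value was 0.07, so its direction rests on these libraries; it was -0.20 without Control replicate 4 alone and -0.11 with the glial and vascular covariate. Rasgrp2 and Rasgrp3 were low, at 15.9 to 22.2 and 12.7 to 21.7 CPM over all libraries, with log2 fold changes of 0.08 and -0.08.

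**Figure D2:**
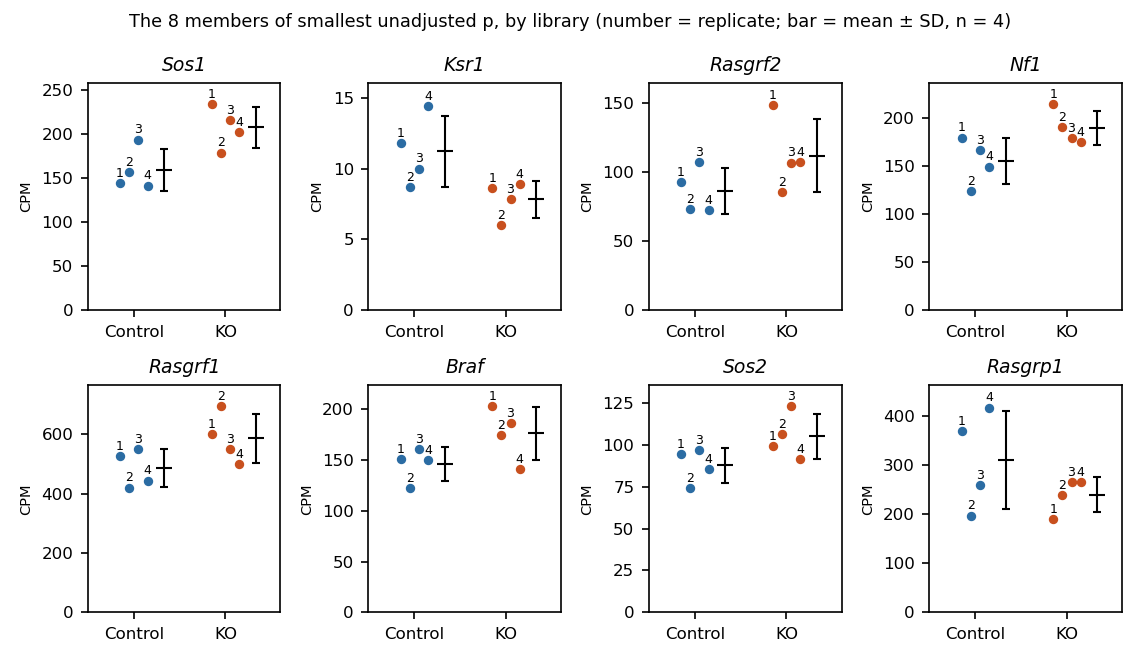
CPM in each library (y axis, from 0) for the 8 members of smallest unadjusted p, Control in blue and KO in orange. Points carry the replicate number, and the bar beside each group gives the mean and SD of 4 libraries. The groups overlap in all 8 genes.

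The libraries that stood high for Rasgrp1 were also high in some genes of other cells. Summed microglial markers were 40.1 and 38.2 CPM in Control replicates 1 and 4 against 10.2 and 11.2 CPM in Control replicates 2 and 3, and 8.83 to 23.8 CPM in KO. Slc17a7 encodes a vesicular glutamate transporter typical of cortical neurons. It was picked here after its values were seen, with the forebrain neuron genes Neurod6 and Ppp1r1b. Slc17a7 had 75.9 and 118 CPM in Control replicates 1 and 4 and 44.7 and 52.6 CPM in Control replicates 2 and 3. In KO it had 22.7 to 72.2 CPM. Control replicate 4 was highest for Neurod6 (17.4 CPM) and Ppp1r1b (53.1 CPM) as well, but Control replicate 1 was not set apart in them: Neurod6 had 4.91 CPM there against 6.35 in Control replicate 3 and 6.56 in KO replicate 4, and Ppp1r1b 36.7 CPM against 41.5 in KO replicate 4. Ksr1, a scaffold described further on, was also highest in these libraries. The part of other cells in the Rasgrp1 and Ksr1 values was not tested.

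**Figure D3:**
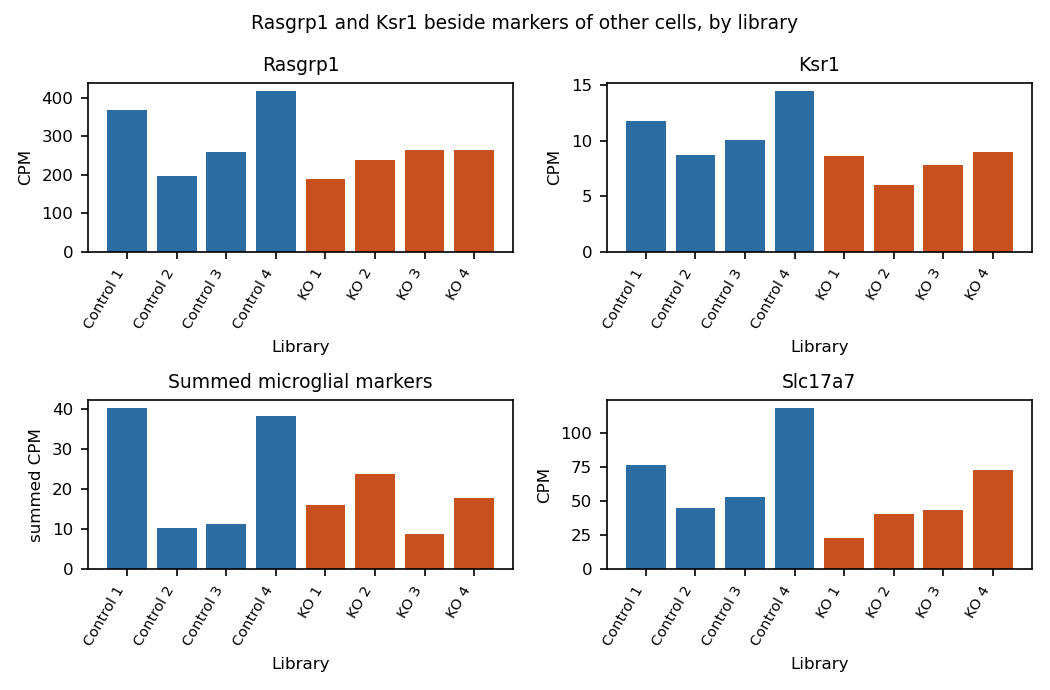
CPM of Rasgrp1, Ksr1 and Slc17a7 and the summed CPM of 7 microglial markers in each of the 8 libraries (bars from 0; Control blue, KO orange). Control replicates 1 and 4 are the highest libraries in all 4 panels, at 369.6 and 418 CPM for Rasgrp1.

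RAS proteins are the switches of the cascade, and all 5 had intervals within 1.5-fold. Hras measured 147, 173, 140.25 and 138 CPM in Control and 155, 139.9, 139 and 141 CPM in KO. The groups overlapped throughout, with KO inside the Control range, and the sign turned without Control replicate 2, to 0.02 (log2 fold change -0.05, SE 0.08, 95% interval -0.29 to 0.19, edgeR adjusted p = 0.917). Nras ranged from 91.1 to 106 CPM in Control and from 75.5 to 106 CPM in KO (-0.08), and Mras, the RAS relative that works with SHOC2, from 152 to 173 and from 151 to 194 CPM (0.07). Rras and Rras2 were the low members of the family, at 6.87 to 13.8 and 4.63 to 7.24 CPM over all libraries, with log2 fold changes of 0.08 and -0.08 and the widest intervals of the 5.

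Of the kinases that pass the signal on, Braf, the RAF kinase with the highest basal activity, had 151, 122, 161 and 150.2 CPM in Control and 203, 175, 187 and 141 CPM in KO. KO replicates 1, 2 and 3 were above all Control libraries, and KO replicate 4 was below Control replicates 1, 3 and 4. The log2 fold change was 0.27 (SE 0.14, 95% interval 0.00070 to 0.54, edgeR adjusted p = 0.470). Mapk3, which encodes ERK1, had 250.25, 268, 260.0 and 286 CPM in Control and 218, 190.3, 289 and 271 CPM in KO, so that KO libraries lay on both sides of the Control range. Its log2 fold change was -0.14 (SE 0.14, 95% interval -0.41 to 0.14, edgeR adjusted p = 0.785). It was -0.05 without KO replicate 2 and -0.23 without KO replicate 3.

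The MEK genes Map2k1 and Map2k2 had means of 172 ± 15.6 and 56.7 ± 2.44 CPM in Control and 186 ± 27.8 and 51.0 ± 8.21 CPM in KO (log2 fold changes 0.11 and -0.15). With 1 library left out these ranged from 0.034 to 0.18 and from -0.27 to -0.084, and with the covariate they were -0.046 and -0.057. Araf, another RAF kinase gene, was the member nearest to no difference, with 333 ± 24.8 CPM in Control and 332 ± 53.5 CPM in KO (log2 fold change -0.0010, 95% interval -0.26 to 0.26). Its neighbour Syn1, a synapsin gene on the opposite strand, rose (log2 fold change 0.64, edgeR adjusted p = 0.0476), and the exons of the pair share 9 bases.

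Scaffolds hold the kinases of the cascade together. Ksr1 was the member with the most negative value. It had 11.8, 8.68, 10.01 and 14.5 CPM in Control and 8.62, 5.99, 7.84 and 8.93 CPM in KO, and the groups overlapped only through Control replicate 2, below KO replicate 4. The means were 11.2 ± 2.50 and 7.85 ± 1.32 CPM (log2 fold change -0.52, SE 0.20, 95% interval -0.94 to -0.09, edgeR adjusted p = 0.352, 0.213 to 0.997 over the alternatives). Without Control replicates 1 and 4 the value was -0.25.

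Ksr2, the brain-enriched relative whose loss makes mice obese, had a value of the opposite sign. It ranged from 56.5 to 73.4 CPM in Control and from 61.4 to 88.0 CPM in KO (log2 fold change 0.25, 95% interval -0.02 to 0.52, edgeR adjusted p = 0.524). This was 0.16 without KO replicate 1, 0.13 without Control replicates 1 and 4 and 0.091 with the glial and vascular covariate. Shoc2, which with MRAS and a phosphatase removes an inhibitory phosphate from RAF, had 259, 261, 300.0 and 272 CPM in Control and 307, 265, 372 and 299 CPM in KO. KO replicates 1 and 3 exceeded the Control range (0.19, SE 0.11, 95% interval -0.07 to 0.44, edgeR adjusted p = 0.645). The Shoc2 value was 0.089 without KO replicate 3 and 0.082 with the covariate.

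Negative regulators were led by Nf1, which encodes the RasGAP neurofibromin. It had 179.8, 124, 167 and 149.5 CPM in Control and 215, 190.3, 179 and 175 CPM in KO, where only Control replicate 1 reached into the KO range. The means were 155 ± 24.0 and 189.7 ± 17.9 CPM (log2 fold change 0.29, SE 0.13, 95% interval 0.02 to 0.56, edgeR adjusted p = 0.426). The RasGAP genes Rasa1 (log2 fold change -0.0046) and Rasal1 (-0.02) and Lztr1 (-0.04), an adaptor for RAS ubiquitination, had values near 0. Rasa2, another RasGAP, was at 0.21 with a wide spread in KO, 19.4 to 32.6 CPM, and ranged from 0.087 to 0.32 with 1 library left out.

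Adaptors connect receptors to SOS. Grb2 had 78.8, 91.0, 83.1 and 77.0 CPM in Control and 90.9, 81.5, 78.6 and 87.5 CPM in KO, with all KO libraries inside the Control range. The log2 fold change was 0.04 (SE 0.07, 95% interval -0.20 to 0.27, edgeR adjusted p = 0.944), so the member with the octamer did not pass the test. That octamer lies at 1 of the RefSeq starts, inside the span of Grb2 from 115644045 to 115708597 on chromosome 11. The docking protein genes Gab1 (0.14), Gab2 (0.01), Frs2 (0.05) and Frs3 (0.03) and Ptpn11 (0.05), which encodes the phosphatase SHP2, completed the group. All 6 had a positive value, of 0.14 or less, but these signs were not stable: Gab2 was at -0.02 with upper-quartile scaling, Grb2, Gab2, Frs2 and Frs3 were negative with the glial and vascular covariate (-0.11 for Frs2), and Ptpn11 was at -0.03 without KO replicate 1. All 6 intervals lay within 1.5-fold. Antisense Frs3os overlaps 16.3% of the exon bases of Frs3. No step that marks strand is named, so their reads may not have been told apart.

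The RSK and MSK kinases act downstream of ERK. Rps6ka2 had 56.3, 65.0, 58.8 and 60.3 CPM in Control and 81.3, 49.9, 70.7 and 65.4 CPM in KO, where values lay on both sides of Control (log2 fold change 0.15, SE 0.15, 95% interval -0.13 to 0.44, edgeR adjusted p = 0.762). With the glial and vascular covariate it was 0.0075, and it was 0.033 without KO replicate 1 and 0.26 without KO replicate 2. Rps6ka1 ranged from 7.41 to 9.93 CPM in Control and from 9.85 to 11.9 CPM in KO, an overlap of 1 library in each group (0.31, 95% interval -0.06 to 0.67, edgeR adjusted p = 0.576). Rps6ka3 was at -0.11 and Rps6ka5 at 0.02.

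Levels between members were compared per kb of exon, in Control. The length used was that of all annotated exons of a gene merged, which can exceed the transcript present, so the order depends on the annotation. Rasgrp2 has 12384 such bases and Rasgrp3 5840, and without division by length they were at 17.8 ± 1.26 and 16.8 ± 2.76 CPM. Among the RAS genes the order was Hras (40.0 ± 4.31 CPM per kb), Mras (31.4 ± 1.88), Nras (18.8 ± 1.30), Rras (8.81 ± 1.88) and Rras2 (1.74 ± 0.229), with each step larger than the SDs. Mapk3 was the highest of all members at 118 ± 6.76 CPM per kb. Among the kinases Araf and Map2k1 followed it at 50.8 ± 3.79 and 50.8 ± 4.59, a pair that did not differ beyond the spread, and so did Braf and Map2k2 at 10.5 ± 1.20 and 10.01 ± 0.430. Rasgrp1 (55.6 ± 18.0) and Rasgrf1 (43.8 ± 5.71) led the exchange factors, with a difference inside the spread of Rasgrp1, and Sos1 followed at 14.98 ± 2.27. Sos2 (10.3 ± 1.19) and Rasgrf2 (9.34 ± 1.82) did not differ beyond their spread, and Rasgrp3 (2.88 ± 0.473) and Rasgrp2 (1.44 ± 0.102) were the low exchange factors.

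Among scaffolds Shoc2 (48.9 ± 3.39 CPM per kb) stood above Ksr2 (4.70 ± 0.542) and Ksr1 (1.58 ± 0.352). The RasGAP gene Nf1 (9.78 ± 1.52) and Lztr1 (9.22 ± 0.689) did not differ beyond their spread, and Rasa1 (7.80 ± 0.202), Rasal1 (2.62 ± 0.200) and Rasa2 (1.41 ± 0.230) followed. Among adaptors Grb2 (28.3 ± 2.14) and Ptpn11 (17.8 ± 0.739) were above Frs2 (12.2 ± 0.770), Frs3 (8.18 ± 0.776), Gab1 (8.11 ± 0.918) and Gab2 (5.48 ± 0.941), where Frs3 and Gab1 did not differ beyond their spread. Of the ERK-activated kinases, Rps6ka2 (6.03 ± 0.367) and Rps6ka3 (5.22 ± 0.705) led Rps6ka1 (2.10 ± 0.255). The lowest member was Rps6ka5 at 0.695 ± 0.114 CPM per kb.

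**Figure D4:**
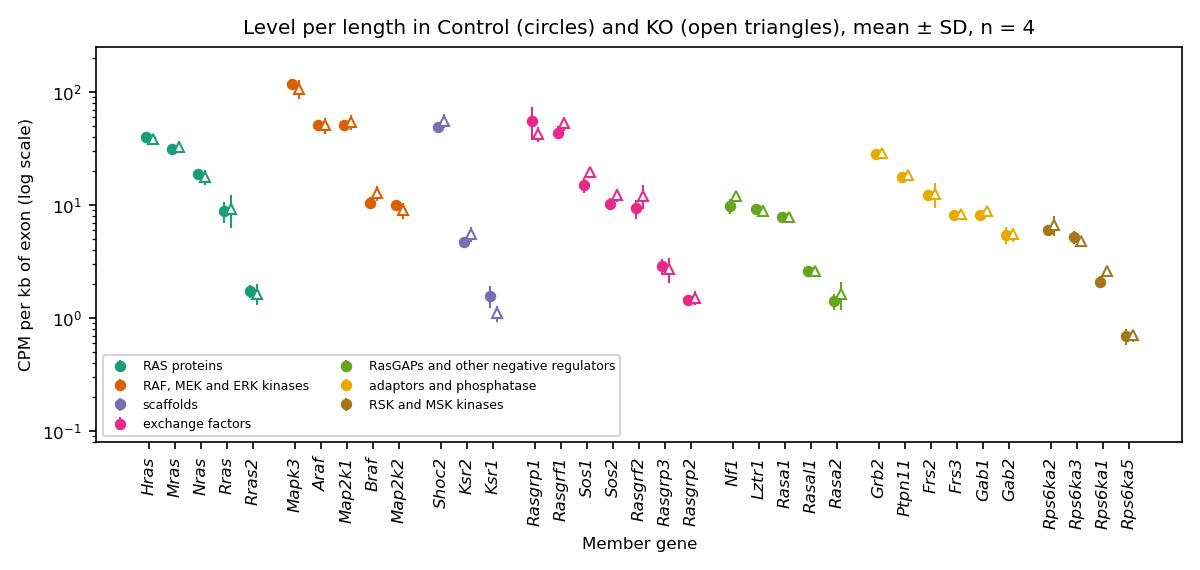
Mean level of each member in CPM per kb of exon (y axis, log scale) with the SD of 4 libraries, Control as filled circles and KO as open triangles, ordered by role and Control level. Levels span from 0.695 for Rps6ka5 to 118 for Mapk3, and Control and KO lie close together for each gene.

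The other genes of the pathway were taken from 3 lists that were drawn up with earlier results of these data known. Of 37 tested genes around RAS and ERK (RIT, RAL and RAP GTPases and their exchange factors, further RasGAPs, scaffolds and kinases) 0 passed in edgeR, DESeq2 or limma-voom. In edgeR 4 had an unadjusted p under 0.05 (10.8%, against 10.6% of all genes), and the median log2 fold change was -0.02. Rit2, a neuronal RAS-like GTPase, had 503.7 to 567 CPM in Control and 560.1 to 804 CPM in KO (0.33, edgeR adjusted p = 0.334). Mknk2, a kinase that ERK activates, had 9.21 to 11.3 and 6.18 to 9.60 CPM (-0.42, edgeR adjusted p = 0.449), and the scaffold gene Iqgap1 4.89 to 7.96 and 6.37 to 9.92 CPM (0.48, edgeR adjusted p = 0.461).

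Of 15 tested feedback inhibitors 3 rose and 0 fell in edgeR, with a median of 0.21; DESeq2 also called Spred2, named here after its values were seen, and limma-voom did not call Dusp4. Spry4, which blocks RAS activation, had 31.9, 21.1, 22.8 and 29.6 CPM in Control and 69.5, 68.2, 72.8 and 66.0 CPM in KO (log2 fold change 1.39, SE 0.15). Spred3, which belongs to the family that brings neurofibromin to the membrane, had 37.3, 39.7, 39.9 and 43.2 CPM in Control and 89.7, 107, 120 and 70.4 CPM in KO (1.27, SE 0.17). Dusp4, an ERK phosphatase, had 3.73 to 4.34 CPM in Control and 7.30 to 12.9 CPM in KO (1.22, edgeR adjusted p = 0.0238); of the 8 fits lacking a single library, it passed in 2, the one lacking KO replicate 2 and the one lacking KO replicate 4, while its log2 fold change over all 8 was 1.03 to 1.32. Spred3 lies 3.86 Mb from Cic, and for a gene this close, effects of the floxed chromosome segment and of lost Cic cannot be told apart. Its exons also share bases with another annotated gene. The nearest member of the cascade on that chromosome, Rras, lies 19.7 Mb away.

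Of 19 tested output genes 3 rose and 0 fell, with a median of -0.06. The ETS factor Etv4 had 0.804, 1.69, 1.43 and 0.851 CPM in Control and 5.98, 6.13, 4.80 and 5.58 CPM in KO (log2 fold change 2.24, SE 0.28, edgeR adjusted p = 0.00169). Etv5 had 27.1 to 37.4 CPM in Control and 64.7 to 88.7 CPM in KO (1.29), and Maff, a small Maf factor, had 1.69 to 3.25 CPM and 5.64 to 11.7 CPM (1.91). The 6 genes that rose had values of 1.22 to 2.24, and the highest cascade member was at 0.39. These 6 were picked for passing the test, so that contrast does not compare the lists as a whole. The list medians were 0.21 for feedback inhibitors, -0.06 for output genes and 0.05 for the members. Leaving out Control replicates 1 and 4 together, 3 of the 6 still passed, Spry4, Spred3 and Etv5, and the log2 fold changes of Etv4, Maff and Dusp4 were 1.85, 1.66 and 1.30. With the glial and vascular covariate Maff (1.68) and Dusp4 (1.07) did not pass.

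**Figure D5:**
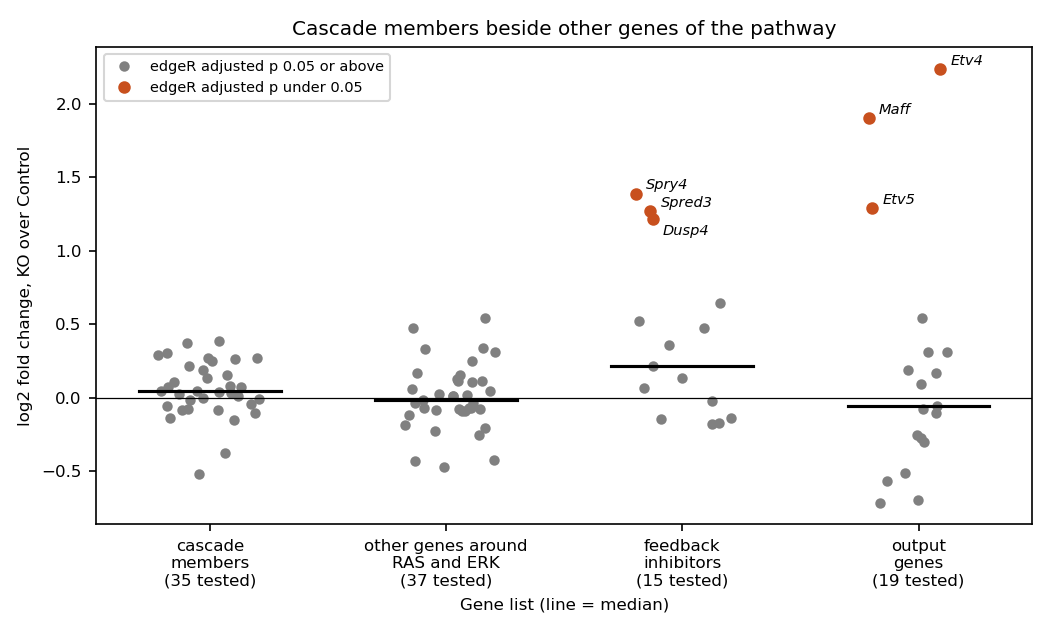
Log2 fold change, KO over Control (y axis), of each tested gene of the cascade and of 3 further lists of the pathway, with the median of each list as a line. Genes past an edgeR adjusted p of 0.05 are in orange and named: 3 feedback inhibitors and 3 output genes between 1.22 and 2.24, and 0 of the 35 members.

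The median coefficient of variation over the 35 was 11.3% in Control and 14.3% in KO, beside 13.2% and 19.7% over all genes tested and 10.3% and 15.8% over the 10431 genes within the members' range of mean CPM. Rasa1 was the steadiest in Control at 2.60% and Rasgrp1 the most variable at 32.3%, and in KO these extremes were Gab1 at 3.29% and Rras at 32.9%. As a share of gene counts the 35 members made up 0.347% to 0.392% in Control and 0.377% to 0.409% in KO. Those gene counts include the ribosomal RNA row Rn45s, which took 8.46% to 11.5% in Control and 5.52% to 10.1% in KO. How far this moved the member share was not tested.

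Members lie on different chromosomes of GRCm38, with Sos1 (ENSMUSG00000024241.7) on chromosome 17 from 80393751 to 80480453, Ksr1 (ENSMUSG00000018334.18) on chromosome 11 from 79013440 to 79146407 and, next along that chromosome among the members, Nf1 (ENSMUSG00000020716.16) from 79339693 to 79581612. These neighbours had fold changes of opposite sign, -0.52 and 0.29. Braf (ENSMUSG00000002413.15) lies on chromosome 6 from 39603237 to 39725463, Rasgrp1 (ENSMUSG00000027347.18) on chromosome 2 from 117279993 to 117343001, Rasgrf1 (ENSMUSG00000032356.12) on chromosome 9 from 89909908 to 90026977, Mapk3 (ENSMUSG00000063065.13) on chromosome 7 from 126759601 to 126765819 and Grb2 (ENSMUSG00000059923.13) on chromosome 11 from 115644045 to 115708597. Exons of 10 members share bases with another annotated gene, among them Rps6ka1 (5.80% of its exon bases), Gab1 (5.23%) and Ksr1 (2.62%), and the authors' counting could not be checked there.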

How the data were processed

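RNA bound to tagged ribosomes was sequenced in 4 KO and 4 Control libraries. Per the labels' protocols, cDNA was amplified with the NuGEN Ovation system using poly(A) and random priming, and no step is named that marks strand. The values the authors deposited are raw read counts per gene, made with TopHat2 2.0.9 and HTSeq on mm10, and DESeq2 is also named, per the submitters' processing notes; no source here names the annotation, strand setting or filters. The counter lines put 63.3% to 81.9% of records per library as not uniquely aligned. Left out were 92 spike-ins and 5 counter lines. Counts carry no molecular identifiers.

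All genes were fitted with edgeR (version 4.0.16, under R 4.3.3). Genes were kept by filterByExpr at a minimum count of 10 and a minimum total of 15. TMM scaling was followed by a robust quasi-likelihood test over all 8 libraries with no covariate, and Benjamini-Hochberg adjustment over 15438 genes. The 95% intervals come from that fit, and SE is that of the difference of group means of log2 CPM (prior count 0.5). Single values were compared by exact two-sided permutation, which cannot go below 0.0286. Scripts were tested on simulated data. Alternatives were other scalings and filters, DESeq2 1.42.0, limma-voom (limma 3.58.1), a replicate block, a glial and vascular marker covariate and leaving out libraries. Positions and exon lengths come from GENCODE M21 on GRCm38. Values in every library are given for the 8 members of smallest p and the highest per kb in each role, and values or ranges, from each pathway list, for the genes that passed and the 3 of smallest p. Members, lists and rules were chosen with earlier results of these data known. No pair of libraries agreed within sampling noise (28 pairs, chi-square per degree of freedom 25.9 or more).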

Additional observations from a re-analysis of the deposited data

Results flagged for a closer look

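In 5 of the 70 sets of 4 libraries (35 members in each group), 1 library lay far from the other 3 on the log2 scale, where chance gives about 1 in 20. Hras had 155 CPM in KO replicate 1 against 139 to 141 CPM in the other KO libraries. Rasgrp2 had 15.9 CPM in Control replicate 4 against 18.2 to 18.6 CPM, Frs2 97.2 CPM in the same library against 109.5 to 112 CPM, and Gab1 48.2 CPM in Control replicate 1 against 38.4 to 39.6 CPM. Gab2 had 27.0 CPM in KO replicate 4 against 35.8 to 37.3 CPM. None of these genes passed the test between groups, and the fits without each library did not make them pass.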

How the results depend on the processing

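In all 19 alternatives 0 members passed, and the smallest adjusted p of a member was 0.122 (Sos1, DESeq2). Over all genes the count of 40 became 200 with DESeq2, 65 with the replicate block, 26 with library totals only, 22 with limma-voom, 15 with the glial and vascular covariate and 4 without Control replicates 1 and 4 together; it was 14 to 53 when 1 library was left out (19, 17, 26 and 14 without Control replicates 1 to 4, and 26 without KO replicate 2). The 6 other pathway genes became 3 without Control replicates 1 and 4. Same-numbered libraries deviated from their group means with correlations of -0.04 to 0.09, and libraries of different number with -0.10 to 0.11. These values gave no sign of pairing but cannot exclude it, and the labels do not state it. Of 665 member values, 613 kept their sign. The 52 that changed it lay between -0.13 and 0.09, in 20 members, none past the threshold, and the cause was not tested. With the covariate these were Rras2 0.0425, Araf 0.0452, Map2k1 -0.0463, Rasgrp3 0.0046, Rasal1 0.0755, Grb2 -0.0042, Gab2 -0.0688, Frs2 -0.1056, Frs3 -0.0346 and Rps6ka5 -0.0122. With upper-quartile scaling they were Gab2 -0.0153 and Rps6ka5 -0.0089, and without Control replicates 1 and 4 Rasgrp1 0.0683, Rasgrp3 0.0728, Rasal1 0.0549, Lztr1 0.0254, Grb2 -0.0411, Gab2 -0.1092, Frs3 -0.0571 and Rps6ka3 0.0192. With 1 library left out, the members that changed sign had ranges of Hras -0.1046 to 0.0212, Nras -0.1547 to 0.0003, Rras -0.0942 to 0.2197, Rras2 -0.2137 to 0.0119, Mras -0.0026 to 0.1103, Araf -0.1074 to 0.0892, Rasgrp2 -0.0176 to 0.1368, Rasgrp3 -0.2628 to 0.0078, Rasa1 -0.0592 to 0.0391, Rasal1 -0.0654 to 0.0229, Lztr1 -0.1326 to 0.0086, Grb2 -0.0097 to 0.0853, Gab2 -0.1034 to 0.1041, Frs2 -0.1311 to 0.1402, Frs3 -0.0285 to 0.0937, Ptpn11 -0.0252 to 0.1032 and Rps6ka5 -0.0784 to 0.1112. Of the 6 pathway genes that rose, Spry4, Spred3 and Etv5 passed in all 19 alternatives; without Control replicates 1 and 4 the adjusted p was 0.124 for Etv4, 0.300 for Maff, 0.416 for Dusp4 and 0.135 for Cic. Maff passed in 17 of 19, failing also with the covariate, where 4 pathway genes passed. The lowest size over all alternatives was 1.85 for Etv4, 1.63 for Maff, 1.03 for Dusp4 and -0.98 for Cic.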

Other observations

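Lists next to the cascade held genes of the membrane attachment of RAS proteins and of the parallel JNK and p38 arms. Of 10 genes for lipid modification, traffic and turnover of RAS proteins and their partners, 0 passed in edgeR, DESeq2 or limma-voom. In edgeR 3 had an unadjusted p under 0.05 (30%, against 10.6% of all genes). The subunit gene Fnta of farnesyltransferase had 166 to 204 CPM in Control and 133 to 177 CPM in KO (log2 fold change -0.27, 95% interval -0.53 to -0.02, edgeR adjusted p = 0.434), and Icmt, the methyltransferase of the last step of prenyl processing, had 45.6 to 57.3 and 32.5 to 47.4 CPM (-0.35, 95% interval -0.63 to -0.07, edgeR adjusted p = 0.342). Usp9x, a deubiquitinase, was at 0.35 (edgeR adjusted p = 0.352). The list had 5 positive and 5 negative values and a median of -0.10.

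Of 10 genes of the JNK and p38 arms 0 passed in edgeR, DESeq2 or limma-voom, and 7 had a positive value (median 0.08). In edgeR 1 had an unadjusted p under 0.05 (10%, against 10.6% of all genes). Mapk11, a p38 gene, had 20.9 to 27.6 CPM in Control and 25.8 to 36.3 CPM in KO (0.36, 95% interval 0.05 to 0.67, edgeR adjusted p = 0.383). Mapk10, the neuronal JNK gene, was abundant, at 668 to 769 CPM in Control and 649 to 888 CPM in KO (0.16). Of the kinase genes above JNK, Map2k4 was at 0.14 and Map2k7 at -0.055.

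Hap1, a gene abundant in hypothalamic neurons and picked after its values were seen, had 124 to 152 CPM in Control and 168 to 212 CPM in KO (log2 fold change 0.41, SE 0.10, edgeR adjusted p = 0.186). Its highest library was KO replicate 1, which was also the highest for Sos1, Braf, Ksr2, Nf1 and Rasgrf2 and had the lowest summed oligodendrocyte markers, 1561 CPM.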
